A study of Caenorhabditis elegans with 3 samples.

Results

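The DREAM complex subunit genes of Caenorhabditis elegans were examined for peaks of LIN-15B. The 8 genes were chosen by name as those encoding subunits of the complex: lin-54, lin-9, lin-35, efl-1, dpl-1, lin-37, lin-52 and lin-53. They are 8 of 19973 protein-coding genes on the nuclear chromosomes, and all 8 were found in the annotation. For each gene, the peaks described are those with the summit from 1000 bp upstream of the gene to its end, ranked by strength within each deposited list.

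Binding was measured by chromatin immunoprecipitation followed by sequencing (ChIP-seq) in 1 group of 3 biological replicates, whole L1 larvae (the larval stage after hatching) of mixed sex with no age given. All animals were of strain OP184, which carries the unc-119(tm4063) mutation on chromosome III and wgIs184, a transgene of lin-15B fused to eGFP, and the replicate 3 labels name a C-terminal GFP-FLAG fusion. There was no control group, and the values are those of a tagged transgene product in mixed cells of the whole animal. The antibody label names LIN-15B and the sample descriptions name the eGFP fusion, so whether the tag or the protein was bound by the antibody is not settled. The stock of replicates 1 and 2 was obtained from the CGC, and their fragment sizes were given as 150 to 350 bp. The stock of replicate 3 was the laboratory's own, and its chromatin was sheared by microtip sonication.

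In C. elegans, the DREAM complex joins a pocket protein, an E2F-DP pair and the MuvB core on promoters, where it represses cell cycle genes and genes of the germline. LIN-35 is the only pocket protein of the worm, related to the retinoblastoma protein, EFL-1 is an E2F factor and DPL-1 its DP partner. LIN-9, LIN-37, LIN-52, LIN-53 and LIN-54 form the MuvB core, in which LIN-54 binds DNA. LIN-15B, a protein with a THAP domain, belongs to the same genetic class, synMuv B, and also keeps germline genes off in somatic cells, but it is not counted among the subunits of DREAM.

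Each list held 30000 peaks, since the lists were made as input for the IDR and include background, and read depth is unknown. A rank of 1 is the strongest peak of a list. Peaks that passed an irreproducible discovery rate (IDR, a measure of how well ranks repeat between replicates) of 0.05 in all 3 pairs of replicates are called consistent, and there were 926 of them. Consistent peaks stood in the windows of 1286 genes (6.44%) and, from 500 bp upstream to 200 bp downstream of a transcript start, in the promoters of 1048 (5.25%). Larval stage cannot be checked from peak lists.

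LIN-15B peaks stood just upstream of 5 of the 8 subunit genes: lin-54, lin-9, lin-35, efl-1 and lin-53. All 5 had a consistent peak in the window (62.5%, against 6.44% of all genes), and all 5 had it in the promoter (62.5%, against 5.25%). For lin-54 and lin-53 the start of another gene, rpl-12 and nra-2, lay nearer to the summit. With peaks given to the nearest transcript start only, 3 of the 8 kept one in the window, lin-9, lin-35 and efl-1, against 4.17% of all genes. The other 3, dpl-1, lin-37 and lin-52, had no consistent peak, and their listed peaks ranked 1598 (dpl-1 in replicate 3) or weaker in the replicates. The genes with a consistent peak encode the pocket protein, the E2F factor and 3 of the 5 core subunits. The DP partner and the small core subunits LIN-37 and LIN-52 are encoded by the genes without a consistent peak. The 8 genes were chosen with earlier results of these data known, so these counts are a description and no test was made over them.

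The sequence around the summit is shown for 3 of the 5 genes, because these promoters carry the strongest peak (lin-54), the strongest peak that no other promoter shares (lin-9), and the peak that varied most between replicates (efl-1). The windows reach 100 bp either side of the series-wide summit, less any annotated exon, on the plus strand of ce11 (chrIV:13240652-13240783 for lin-54, chrIII:8904187-8904387 for lin-9 and chrV:16965746-16965946 for efl-1), read from the RefSeq copy of that assembly. Capitals mark matches, on either strand, to an E2F-like motif (the letters TTCCCGC, and likewise TTCGCGC, then also TTGCCGC, and finally TTGGCGC), to a CHR-like motif (the letters TTCGAA, and likewise TTTGAA) and to GAGCGC.
lin-54: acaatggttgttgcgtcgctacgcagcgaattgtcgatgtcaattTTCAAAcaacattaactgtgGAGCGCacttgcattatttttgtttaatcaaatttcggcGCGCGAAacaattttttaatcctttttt
lin-9: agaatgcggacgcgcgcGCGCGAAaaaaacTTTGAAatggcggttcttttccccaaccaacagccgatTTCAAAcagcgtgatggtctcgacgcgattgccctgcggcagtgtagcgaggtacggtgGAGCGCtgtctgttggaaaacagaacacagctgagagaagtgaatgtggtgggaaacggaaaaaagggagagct
efl-1: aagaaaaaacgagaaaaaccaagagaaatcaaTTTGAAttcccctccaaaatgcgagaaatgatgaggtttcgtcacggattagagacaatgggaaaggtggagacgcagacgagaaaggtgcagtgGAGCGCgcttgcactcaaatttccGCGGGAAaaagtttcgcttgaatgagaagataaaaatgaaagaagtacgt
Each of the 3 windows holds all 3 motifs. GAGCGC lies 27 to 32 bp from the summit in lin-9 and in efl-1, on the side of higher coordinates. It is the nearest match in efl-1, and in lin-9 a CHR-like match lies as near on the other side. In lin-54 it lies 34 to 39 bp from the summit, and a CHR-like match is nearer, at 14 to 19 bp.

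The gene of the core subunit LIN-54 had the strongest peak of the set. The lin-54 gene (WBGene00003037) spans 13241044 to 13243401 of chromosome IV on the plus strand. Its peak ranked 5, 4 and 4 in replicates 1, 2 and 3, a mean rank of 4.33 ± 0.577 (SD, n = 3), and 5 in the series-wide list. The authors' signal values, on a scale of each list's own, were 222, 212 and 308 in the same order, which is 78.3%, 84% and 71.2% of the highest value in the respective list. When all 19973 genes were ordered by the strongest peak in their window, lin-54 stood 9th, 7th and 6th in replicates 1, 2 and 3. The peak was near the top of every list, with no replicate apart from the others.

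The lin-54 peak cannot be assigned to lin-54 alone. Its series-wide summit, at 13240683 between the genes, lay 361 bp upstream of lin-54 and 32 bp upstream of rpl-12, a gene of the large ribosomal subunit on the opposite strand. The annotated starts of the divergent genes are 393 bp apart, with 1 series-wide peak between them. Beyond this peak, the lin-54 window held only peaks of rank 13311 or weaker, with 2, 1 and 1 of them in replicates 1, 2 and 3.

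The gene of the core subunit LIN-9 had the next strongest peak, and it was not shared. The lin-9 gene (WBGene00002998) spans 8900237 to 8904131 of chromosome III on the minus strand. The peak ranked 55, 51 and 36 in replicates 1, 2 and 3 (mean 47.3 ± 10, SD, n = 3), with signal values of 86, 81.9 and 181. The series-wide summit at 8904287, between genes, was 156 bp upstream of the lin-9 start. The nearest divergent start is that of unc-32, 1328 bp from the summit, outside the promoter as defined. The summits of the 3 replicates lay within 5 bp of each other, the closest of the 5 genes. Of all 926 consistent peaks, 6.48% had summits at least as close, and the median range over replicates was 25 bp.

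**Figure D1:**
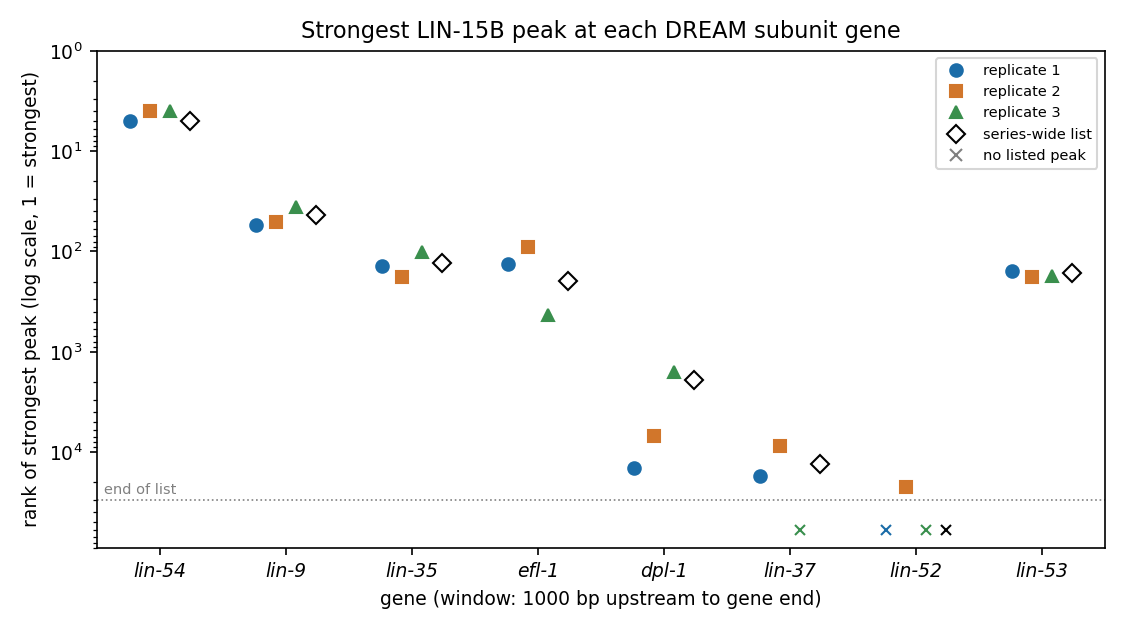
Rank of the strongest LIN-15B peak with its summit from 1000 bp upstream of each gene to its end, on a log axis with rank 1 at the top; filled symbols are the 3 replicates, open diamonds the series-wide list, and crosses below the dotted end of the list mark no listed peak. lin-54 lies at ranks 4 and 5, lin-9 between 36 and 55, the next 3 genes between 90 and 428, and dpl-1, lin-37 and lin-52 at 1598 or weaker.

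Both genes of the Rb-E2F limb with a consistent peak carried it within 200 bp of their start. The lin-35 gene (WBGene00003020) spans 5807709 to 5815637 of chromosome I on the plus strand. Its peak ranked 139, 180 and 102 in replicates 1, 2 and 3 (mean 140 ± 39.0, SD, n = 3), with signal values of 54.6, 44.2 and 111. The series-wide summit at 5807524 was between lin-35, 185 bp away, and the divergent vps-51, 233 bp away, so lin-35 was the nearer gene. The gene vps-51 encodes a subunit of a complex in endosome traffic.

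The efl-1 gene (WBGene00001161) spans 16958590 to 16965675 of chromosome V on the minus strand. Its peak ranked 133, 90 and 428 in replicates 1, 2 and 3 (mean 217 ± 184, SD, n = 3), with signal values of 55.8, 62.2 and 51.5. Replicate 3 was the weakest here, while it had the strongest rank of the 3 at lin-9 and lin-35. The highest rank was 4.76 times the lowest, and 96.3% of consistent peaks had a ratio as small or smaller. Without replicate 3 the mean rank was 112. Replicate 3 is also the one with its own stock. A fragment size is stated for replicates 1 and 2 and a shearing method for replicate 3, so these items do not compare fragmentation. The part of either in the difference was not tested.

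The efl-1 summits were also the most spread, over 44 bp, from 156 bp upstream in replicate 2 to 200 bp upstream in replicate 3. The series-wide summit at 16965846 was 171 bp upstream of efl-1. It also lay 968 bp upstream of fbxa-90, inside that gene's window but outside its promoter. A weak site in an intron near the 3' end of efl-1, at 16959242 in the series-wide list, ranked 6043 in replicate 1 and 7760 in replicate 3, had no listed summit there in replicate 2, and was not consistent.

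The histone-binding core subunit gene lin-53 had the steadiest of the weaker ranks. It encodes a WD-repeat protein that other chromatin complexes also contain. The gene (WBGene00003036) spans 9618196 to 9619760 of chromosome I on the minus strand. The peak ranked 156, 181 and 174 in replicates 1, 2 and 3 (mean 170 ± 12.9, SD, n = 3), with signal values of 51.3, 44.1 and 86.1. Its series-wide summit at 9619995 lay almost midway between divergent starts 467 bp apart, 232 bp from nra-2 and 3 bp farther from lin-53. Distance therefore does not assign it to either gene. The summits of the replicates spanned 16 bp, from 232 to 248 bp upstream of lin-53.

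**Figure D2:**
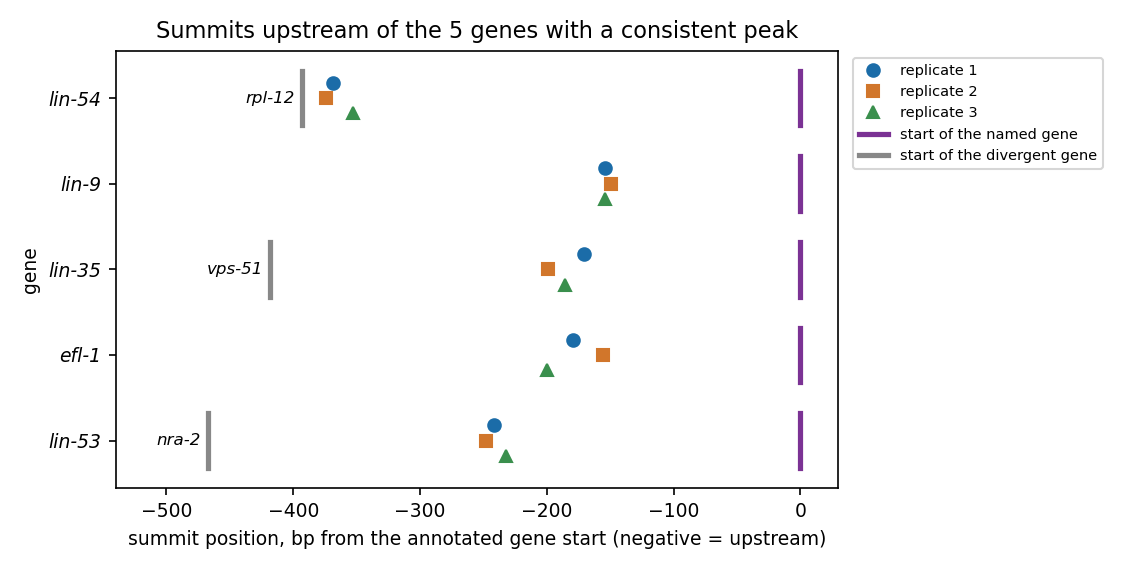
Summit position in each replicate, in bp from the annotated start of the named gene (negative is upstream), for the 5 genes with a consistent peak; vertical bars mark the start of the gene and, where it lies within the plotted range, of the divergent neighbour. The lin-54 summits sit beside the rpl-12 start, those of lin-35 and lin-53 sit between both starts, and no neighbour start is in range for lin-9 and efl-1.

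By replicate ranks, lin-54 (4 to 5) and lin-9 (36 to 55) stood apart from each other and from the rest. The ranges of lin-35 (102 to 180), lin-53 (156 to 181) and efl-1 (90 to 428) overlapped, so these 3 are not ordered. Of the 926 consistent peaks ordered by mean rank, those of lin-54, lin-9, lin-35, lin-53 and efl-1 took places 4, 41, 121, 149 and 200. The median mean rank of consistent peaks was 564.

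The top 200 peaks of every replicate included those of 4 subunit genes, lin-54, lin-9, lin-35 and lin-53 (50%, against 1.04% of all genes). The cut at 200 was not among the planned settings. It lies just past the weakest replicate ranks of lin-35 (180) and lin-53 (181), so the 50% depends on where the cut was put. With the top 1000, efl-1 joined them (62.5%, against 4.52%). Over all 8 genes the median rank of the strongest peak was 147.5, 180.5 and 301.0 in replicates 1, 2 and 3. Over all genes it was 17040, 17454 and 20641. Genes with no listed peak were counted as weaker than every listed peak in both medians.

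**Figure D3:**
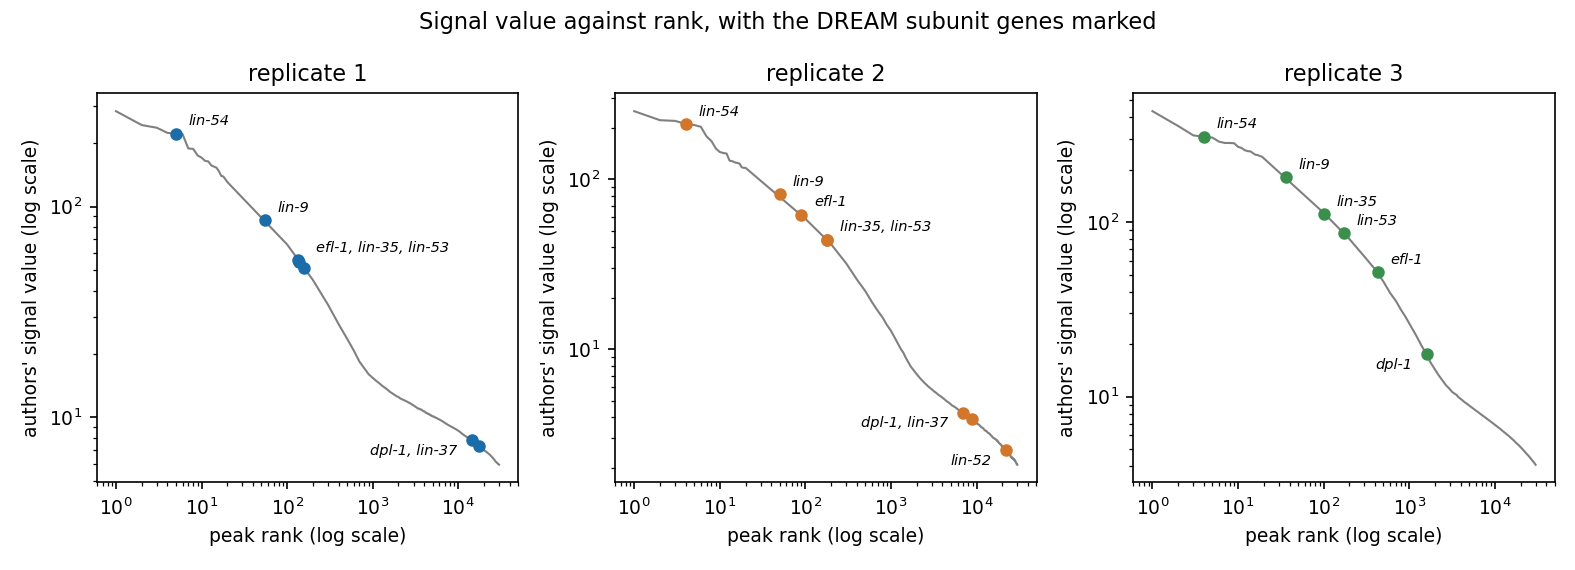
Authors' signal value of the peaks in each replicate against their rank, both on log axes; the grey line is the whole list of 30000 peaks and the points are the strongest peaks of the DREAM subunit genes with a listed peak. lin-54, lin-9, lin-35, lin-53 and efl-1 lie on the steep upper part of every curve, and dpl-1 and lin-37, where listed, lie at 1598 or weaker.

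The DP partner gene dpl-1 (WBGene00001061, chromosome II, 9169910 to 9172565, plus strand) had no consistent peak. The strongest listed peak in its window ranked 14490, 6897 and 1598 in replicates 1, 2 and 3. These were at different places: a coding exon 2035 bp from the start in replicate 1, a coding exon 856 bp from it in replicate 2, and 292 bp upstream in replicate 3. Upstream of the gene, replicate 2 had a peak of rank 8693 at 251 bp, and replicate 1 had none. The series-wide list had a peak of rank 1926 there, 326 bp upstream, with an IDR of 0.229 between replicates 2 and 3. Its summit, at 9169584, is in an exon of a non-coding transcript of T23G7.2, a gene on the opposite strand that spans dpl-1. The nearest consistent summit was 107867 bp away.

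The core subunit genes lin-37 and lin-52 had no listed peak stronger than rank 8775 in any replicate. For lin-37 (WBGene00003022, chromosome III, 7070890 to 7072552, minus strand) the strongest listed peaks ranked 17498 in replicate 1, inside a coding exon, and 8775 in replicate 2, inside an intron, and replicate 3 had none. The former, 196 bp downstream of the start, is within the promoter as defined, as is a further replicate 1 peak of rank 17755, 483 bp upstream in a coding exon of ZK418.5. For lin-52 (WBGene00003035, chromosome III, 9824083 to 9824750, minus strand) the only listed peak ranked 22223 in replicate 2, 127 bp upstream, and neither the other replicates nor the series-wide list had one. A listed peak in the window is common: 68.3%, 66.5% and 61% of all genes had one in replicates 1, 2 and 3, against 7, 8 and 6 of the 8 subunit genes. In the series-wide list 66.8% of all genes and 7 of the 8 had one, and 38.7% and 6 of the 8 had one in every replicate. Since the lists end at 30000 peaks, no listed peak does not show that LIN-15B was absent.

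Both genes lie close behind another gene on the same strand, an arrangement seen in worm operons, in which several genes are transcribed from 1 promoter. The gene ZK418.5 ends 60 bp before lin-37 begins. A consistent peak stood 330 bp upstream of ZK418.5 and 1629 bp upstream of lin-37, at 7074181, with ranks of 1816, 726 and 2437 in replicates 1, 2 and 3. It took place 902 of 926 by mean rank. The gene ZK632.9 ends 126 bp before lin-52 begins, and its own window held no consistent peak, with ranks of 22223 in replicate 2, 2114 in replicate 3 and none in replicate 1. These neighbours were looked up after the values of lin-37 and lin-52 were seen, and whether they share a transcript with them was not tested.

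**Figure D4:**
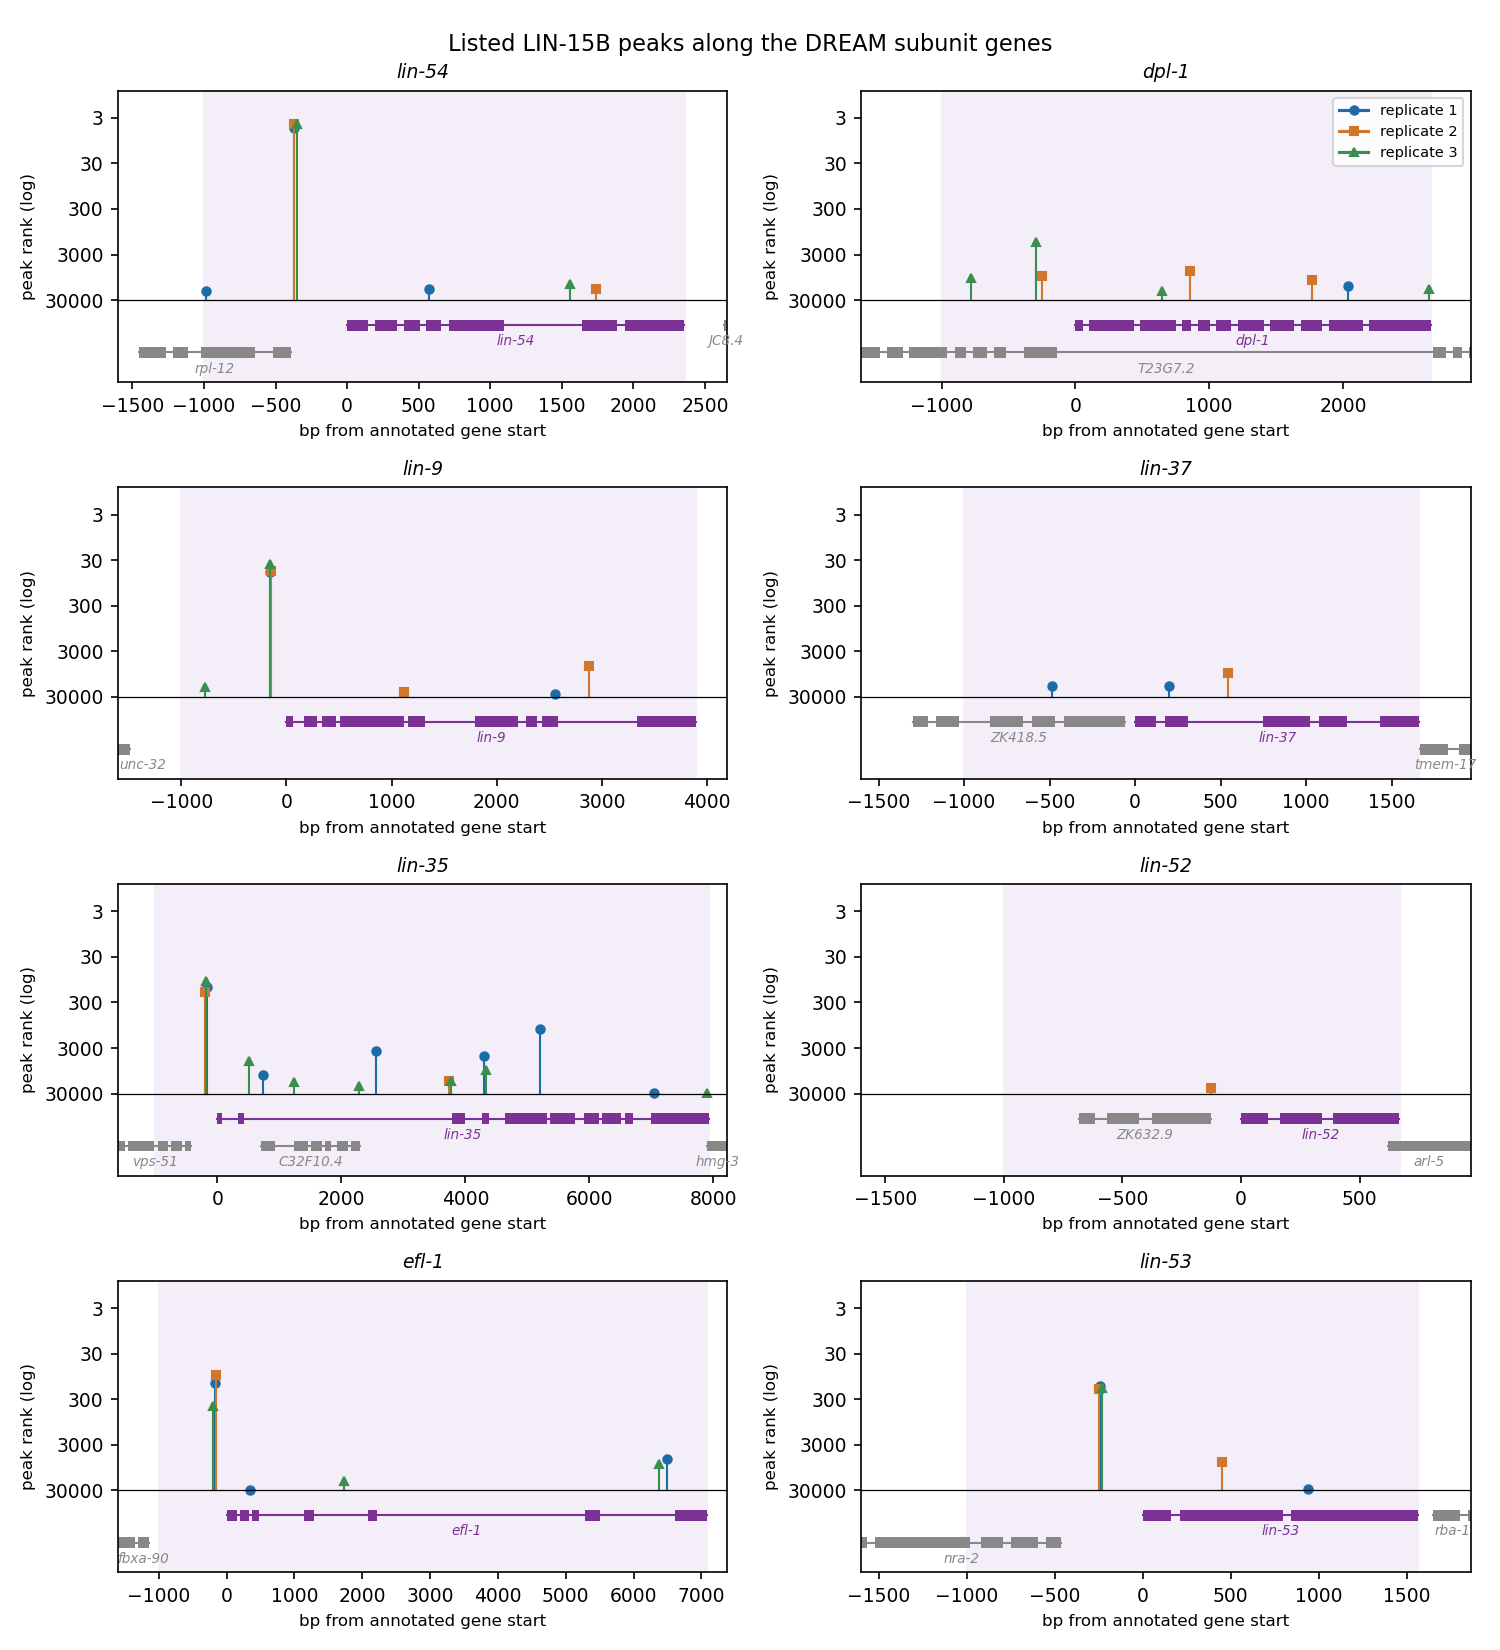
Listed peaks of each replicate along the 8 genes, by distance in bp from the annotated gene start, with height showing rank on a log axis from 30000 at the line to 3 near the top; the shaded span is the window, purple boxes are exons of the named gene and grey boxes those of neighbours, with the opposite strand on the lower row. In lin-54, lin-9, lin-35, efl-1 and lin-53 the peaks of all 3 replicates coincide upstream of the start, and the other listed peaks are scattered and rank 1125 or weaker.

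Within the gene bodies no consistent peak was found. The lin-35 window, the longest of the set at 8929 bp, held 6, 2 and 7 listed peaks in replicates 1, 2 and 3. The strongest of them after the promoter peak ranked 1125 in replicate 1, in a coding exon 5207 bp from the start, and neither other replicate listed a peak at that place. The gene C32F10.4 lies inside lin-35 on the opposite strand, and 3 listed peaks of the replicates (rank 11893 in replicate 1, and 17120 and 20927 in replicate 3) had summits in it.

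The 5 promoter summits lay 156 to 361 bp upstream of the annotated start of the subunit gene. From the nearest start of any gene they lay 32 bp (rpl-12), 156 bp (lin-9), 185 bp (lin-35), 171 bp (efl-1) and 232 bp (nra-2). On that measure, in either direction, the median for consistent promoter peaks was 158 bp. Many worm transcripts are trimmed by trans-splicing, so annotated starts can lie downstream of where transcription begins. Of the 5 genes, 3 shared the peak with another promoter (60%), and another gene was nearer for 2 (40%). Over all 1048 genes with a consistent promoter peak, 56.3% shared it and another gene was nearer for 28.6%. The subunit genes thus shared peaks about as often as genes with a peak in general. Summit ranges over the replicates were 5 to 44 bp, with a median of 21 bp.

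The sequence under the summits was described in windows of 201 bp. Members with a consistent peak held GAGCGC in 4 of 5 windows, all but lin-53. The share was 31.4% of the 926 consistent peaks and 3.97% of 19973 promoter windows of the same length, centred 156 bp upstream of each gene start. GAGCGC was searched because earlier results of these data had put it first. Its excess over promoters was therefore known beforehand and is a description only. The E2F-like motif was in 4 of 5 windows, all but lin-35, against 25.2% of consistent peaks and 6.91% of promoters. The E2F-like matches lay away from the summit, 51 bp or more in every case, and within 50 bp of the summit none of the 5 held one, against 17.5% of consistent peaks. The CHR-like motif was in 4 of 5, all but lin-35, against 53.9% and 56%, so it is common in both backgrounds. E2F-like and GAGCGC matches can share letters, but none did in these windows.

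In the lin-54 window a second E2F-like match lay in rpl-12 and is not shown in the printed run. GC content was 42.8% for lin-54, 53.2% for lin-9, 37.8% for lin-35, 42.3% for efl-1 and 48.3% for lin-53, with medians of 41.3% for consistent peaks and 33.8% for promoters. Observed over expected CpG came to 2.07, 1.33, 1.41, 1.44 and 1.2 for these genes in the same order, with medians of 1.42 and 1.03. A match is a run of letters and does not show that a factor binds there.

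For each member with a consistent peak, the other consistent promoter peak nearest in rank is named here. Members held the peaks of only 5 genes among 926 consistent peaks, so a nearest peak outside the DREAM set was all but fixed beforehand. The match is on rank alone and does not bear on which gene or gene class a peak belongs to. By the sum over 3 replicates of absolute differences in log2 rank, the nearest consistent promoter peak to lin-54 was that of rps-12 and ska-3 (1.57), to lin-9 that of cct-1 and mig-5 (0.501), to lin-35 that of col-38 and rpl-5 (0.179), to efl-1 that of tim-1 and Y75B8A.23 (1.06), and to lin-53 that of pola-1 and Y47D3A.1 (0.249).

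Of 17 other genes of the synMuv B class, DREAM relatives and cell cycle regulators upstream of LIN-35, 4 had a consistent peak in the window (23.5%, against 6.44% of all genes) and 3 in the promoter (17.6%, against 5.25%). These 17 genes were also chosen with earlier results of these data known, so the counts are a description only. The strongest was at mcd-1, a gene that acts with lin-35 in programmed cell death, with ranks of 237, 164 and 121 in replicates 1, 2 and 3 and a summit 40 bp upstream. The zinc finger gene mep-1 ranked 432, 397 and 1067 at 194 bp upstream. The synMuv B gene lin-36, which encodes a protein with a THAP domain, ranked 280, 440 and 467 at 239 bp upstream. At lin-13, a zinc finger gene of the class, the peak ranked 425, 630 and 375 but lay 764 bp upstream, outside the promoter. None of these 4 peaks was in another gene's promoter.

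No consistent peak was found for lin-61, hpl-2, met-2, lin-65, let-418, hda-1, tam-1, rba-1, efl-2, efl-3, cki-1, cdk-4 and cyd-1. For lin-61 and cdk-4 this depended on replicate 3. The ranks were 706, 717 and 23271 for lin-61 and 1156, 637 and 8240 for cdk-4 in replicates 1, 2 and 3. Without replicate 3 both had a consistent peak, for 6 of the 17 genes in all, against 6.98% of all genes. Paralogs of lin-53 and efl-1 are also among the genes without one. The lin-53 paralog rba-1, which lies just behind lin-53 on the same strand, ranked 14792, 15905 and 19404 in replicates 1, 2 and 3. Of the other E2F genes, efl-2 ranked 9748, 5555 and 6135, and efl-3 ranked 4681 in replicate 1 with no listed peak in replicates 2 and 3. Within windows from 1000 bp upstream, rba-1 ranked weaker than lin-53 in every replicate, and efl-2 and efl-3 ranked weaker than efl-1 or were not listed. The start of rba-1 is 1653 bp behind that of lin-53, so its window leaves out the lin-53 promoter. A window from 2000 bp upstream takes in the lin-53 promoter, and with it rba-1 was also counted, through the same peak as lin-53. Whether rba-1 and lin-53 share a transcript was not tested.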

How the data were processed

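LIN-15B ChIP-seq of 3 replicates of 1 group was used as deposited ce11 peak lists. Each replicate had its own list, and a series-wide list came from the pooled alignments, each with a control file, per the records deposited with the files. Neither aligner nor caller is given in the sources used here. The signal value of each peak is the authors' own scale, was deposited as such, and set the rank of each peak in its list. The q score deposited with it entered only in an alternative ranking, and the lists on ce10 were not used. Summits are column 2 plus column 10, printed 1-based. Peak lists hold no read counts, so no depth or interval is given, and p-values were not computed.

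Every series-wide peak was paired in each replicate with the strongest peak sharing at least 1 bp. The IDR, a copula mixture model of ranks, was fitted for each of the 3 pairs. Its code was tested on data simulated from the fitted models and on data with no reproducible part. That does not show how well the model suits these lists. Tied values were ordered at random with a fixed seed. Of 6511 peaks found in replicates 1 and 2, 1059 passed 0.05. For replicates 1 and 3 it was 1091 of 7012, and for 2 and 3 it was 1829 of 6127. Genes and starts of protein-coding transcripts are from Ensembl release 115, whose ce11 assembly matches that of the lists, and sequences are from RefSeq. Analyses used Python 3.11.15, numpy 2.4.6 and scipy 1.17.1. The members, the list of 17 other genes and the motifs were chosen with earlier results of these data known. Named genes are all members, genes whose promoter holds a described summit, the listed genes by consistent peak, and the most similar peak of each member. The neighbours unc-32, fbxa-90, T23G7.2, C32F10.4, ZK418.5 and ZK632.9 fall outside this rule, as do the values given for lin-61, cdk-4, rba-1, efl-2 and efl-3, and were chosen after their values were seen. Alternatives were other IDR thresholds, matching, windows, promoters and rankings, and each replicate left out.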

Additional observations from a re-analysis of the deposited data

How the results depend on the processing

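The 5 subunit genes with a consistent peak were the same at an IDR of 0.01 or 0.1, with summits matched within 100 bp, with a pass in any pair, with the top 2000 of every replicate, with a window from 500 bp upstream, and without each replicate (5 to 5 genes). Over all genes the count without 1 replicate ran from 1394 to 2320 (6.98% to 11.6%), the highest without replicate 1. It was 2471 (12.4%) with a pass in any pair. The share of all genes was 5.36% at an IDR of 0.01, 7.08% at 0.1, and 5.55% with a window from 500 bp upstream. For the 17 other genes the count without 1 replicate ran from 4 to 6, the 6 being without replicate 3, where lin-61 and cdk-4 joined. With a pass in any pair it was also 6. It was 3 with a window from 500 bp upstream, where lin-13 left, and 5 from 2000 bp upstream, where rba-1 joined through the lin-53 peak. The number of subunit genes with a consistent promoter peak stayed at 5 without each replicate. With 1 anchor per replicate peak, chosen after seeing the data, 5 subunit genes remained. With the nearest transcript start only, 3 subunit genes were left, in the window and in the promoter, since rpl-12 and nra-2 lie nearer than lin-54 and lin-53. Of all genes, 833 (4.17%) were left in the window and 3.77% in the promoter. From 2000 bp upstream, lin-37 joined as the 6th, through the peak upstream of ZK418.5, against 7.75% of all genes. With a promoter from 250 bp upstream to 100 bp downstream lin-54 left, for 4, against 3.51% of all genes. In windows of 50 bp either side, 0 of 5 summits had an E2F-like match. By q score the 5 genes all tie at rank 1, with 461, 1501 and 1425 peaks at the highest score of replicates 1, 2 and 3, so that ranking does not order them. The subunit genes with a peak in the top 1000 of each list numbered 5 to 5 without each replicate. No paired analysis was possible because there is 1 group. Depth is unknown.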

Other observations

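The printed windows of lin-54, lin-9 and efl-1 share a run of 9 bases, GTGGAGCGC, the longest run common to all 3 on either strand. It stood in 51 of 926 windows of consistent peaks (5.51%) and in 76 of 19973 promoter windows (0.381%), and in neither lin-35 nor lin-53. The run was found after the sequences were seen and was not tested.

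Peaks narrower than the usual width of their list were rare, 16, 53 and 137 of 30000 in replicates 1, 2 and 3, and each of them ranked in the top 1000. The lin-54 peak was among them in every replicate, at 148, 168 and 208 bp against usual widths of 250, 224 and 300 bp. The lin-9 peak was narrow in replicates 2 and 3, at 81 and 181 bp, and the lin-35 peak in replicate 3, at 106 bp. The peaks of efl-1 and lin-53 had the usual width in every replicate. Peak widths come from the authors' caller.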
